A study of Mus musculus with 36 samples.

Results

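The tricarboxylic acid cycle genes described here are Cs, Idh2, Idh3a, Ogdh, Dlat, Dld, Suclg1, Suclg2 and Fh1, 9 of the 18193 genes named on the 2 array designs used, Affymetrix chips 430A and 430B. They were found by the annotation of the platform, taking every probe set whose only gene symbol is 1 of these names, with no use of measured values. This gave 20 of 45137 probe sets, 15 from chip 430A and 5 from chip 430B. Of the 9 genes 7 had several. The arrays measured RNA of 18 hearts from male mice of the strain Tet-myrAkt1/?MHC-tTA, spelled as in the labels, and each heart was hybridised to both chips. These mice carry an Akt1 transgene under tetracycline control together with a transactivator driven by a cardiac myosin heavy chain promoter, and a myristoyl group anchors the encoded Akt1 kinase at the plasma membrane, where it is active. All 5 groups carry both transgenes, the group before induction included, and no heart without them was analysed here. Before induction 4 hearts were taken, from mice aged 12 weeks, and 4 more at 14 weeks, after 2 weeks of induction. Another 4 hearts had 2 weeks of induction and then 2 days of repression, at 14 weeks and 2 days. After 6 weeks of induction 3 hearts were taken at 18 weeks of age, and 3 hearts were taken at 20 weeks, after 6 weeks of induction and 2 weeks of repression. Age rose with the time on and off the transgene and cannot be told apart from it. The agent that switched it on and off is not named in the labels.

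The cycle oxidises acetyl groups in the mitochondrial matrix and passes the electrons to the respiratory chain, and heart muscle, which draws nearly all its ATP from oxidation, is rich in its enzymes. Pyruvate enters through the pyruvate dehydrogenase complex, whose acetyltransferase core is encoded by Dlat, and citrate synthase, encoded by Cs, joins the acetyl group to oxaloacetate. The later steps oxidise isocitrate, 2-oxoglutarate, succinate and malate, with succinyl-CoA ligase and fumarase among them. Dld encodes the dihydrolipoyl dehydrogenase shared by the pyruvate, 2-oxoglutarate and branched-chain oxoacid dehydrogenase complexes and the glycine cleavage system, so that Dlat and Dld belong to complexes that feed the cycle or serve more than the cycle.

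The values are MAS5 signals, linear brightness values that follow RNA abundance and were deposited after a scaling of all arrays of a chip to 1 level. Changes are given as differences of log2(signal + offset), with an offset of 50.02 for chip 430A and of 12.25 for chip 430B, which understates changes of dim probe sets. A probe set was called higher or lower at a Benjamini-Hochberg adjusted p under 0.05 in limma, fitted over all 33084 probe sets that passed a filter on low mean signal. Of the members' probe sets 19 passed, and the 1 that did not was Dld 1433263_at on chip 430B, whose group means lay between 15.3 and 29.5. The brightest probe set on chip 430A stands for each of the 9 genes. For Suclg2 the probe set on chip 430B, 1435841_s_at, was brighter, with a mean signal of 3584 against 1073. The chips are scaled to different levels, and these means are 29.3 and 2.15 times the trimmed mean of their chip. The label heart tissue was checked on 8 cardiomyocyte marker genes, the dimmest of which had a mean signal of 6112, against a trimmed mean near 500.2 on the chip. Akt1 itself, by probe set 1425711_a_at, had a mean signal of 548 ± 69.7 (SD, n = 4) before induction, 2878 ± 645 (n = 4) at 2 weeks, 718 ± 21.8 (n = 4) after 2 days of repression, 2365 ± 542 (n = 3) at 6 weeks and 753 ± 106 (n = 3) after 2 weeks of repression, while a second probe set, 1416657_at, was called lower at 6 weeks than before. Libraries that stand apart were hearts 3 and 4 before induction, labelled male, whose Xist signals of 5412 and 3271 compare with 136 to 289 in the other 16 hearts, and heart 3 at 6 weeks of induction. In that heart the ratio of the 3′ to the 5′ control probe set of Actb, which rises as RNA is degraded or shortened, was 3.71 for chip 430A and 4.2 for chip 430B, against at most 1.92 and 1.88 in the others. All hearts were whole tissue, in which fewer cells of a type and less RNA per cell cannot be told apart.

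The bases before the annotated start of 4 genes are shown because Idh2, Ogdh and Suclg2 were lower in the induced hearts, while Suclg1, the partner of Suclg2 in the same enzyme, was higher at 2 weeks. Each run holds the 250 bases upstream of a start annotated by RefSeq on GRCm38.p6, read 5′ to 3′ on the strand of the gene, in lower case, with matches to the motifs searched in capitals.
Idh2, chr7:80115351-80115600, strand -: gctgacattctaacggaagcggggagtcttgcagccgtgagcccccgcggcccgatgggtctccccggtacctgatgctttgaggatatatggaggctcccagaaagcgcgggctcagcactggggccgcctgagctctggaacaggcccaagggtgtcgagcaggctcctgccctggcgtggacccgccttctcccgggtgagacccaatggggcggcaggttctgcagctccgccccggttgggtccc
Ogdh, chr11:6291347-6291596, strand +: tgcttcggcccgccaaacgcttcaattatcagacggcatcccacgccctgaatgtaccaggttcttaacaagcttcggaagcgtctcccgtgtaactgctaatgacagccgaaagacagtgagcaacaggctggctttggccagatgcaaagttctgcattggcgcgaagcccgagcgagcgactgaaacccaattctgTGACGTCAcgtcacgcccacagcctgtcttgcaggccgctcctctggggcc
Suclg2, chr6:95718847-95719096, strand -: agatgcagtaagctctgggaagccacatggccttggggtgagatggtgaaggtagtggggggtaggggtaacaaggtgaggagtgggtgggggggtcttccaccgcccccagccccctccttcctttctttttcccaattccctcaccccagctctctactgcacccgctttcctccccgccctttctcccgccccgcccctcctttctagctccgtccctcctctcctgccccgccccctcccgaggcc
Suclg1, chr6:73248255-73248504, strand +: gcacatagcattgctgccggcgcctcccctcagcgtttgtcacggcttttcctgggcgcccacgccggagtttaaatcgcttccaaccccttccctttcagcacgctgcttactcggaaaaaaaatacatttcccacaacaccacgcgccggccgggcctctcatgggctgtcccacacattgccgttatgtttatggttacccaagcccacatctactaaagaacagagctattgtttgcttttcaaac
The Ogdh run is the first of 6 RefSeq windows of that gene, and the windows overlap in part. Among the runs printed, GC content was 67.2% for Idh2, 57.2% for Ogdh, 64.4% for Suclg2 and 53.2% for Suclg1, with 17, 18, 8 and 15 CpG dinucleotides. RefSeq windows were matched for 8 of the 9 genes, 13 windows in all, and Idh3a was not matched. The motifs were searched on both strands by their letters: AAGGTCA (bound by estrogen-related receptors), TGTTTAC (FoxO factors), CCGGAAG (ETS factors), GCGCATGCG (NRF1), CACGTG (E-box) and TGACGTCA (CREB). They were present in 4.08%, 3.17%, 6.91%, 1.45%, 6.02% and 1.55% of 32851 RefSeq windows searched over the same 250 upstream bases, in that order. The first 3 motifs were in 0 of the 13 windows of the members, NRF1 letters in 2, E-box letters in 3 and CREB letters in 3, all of them windows of Ogdh. The overlapping windows repeat the same bases. The CREB letters of all 3 windows are 1 stretch, as are the NRF1 letters of both windows and the E-box letters of 2 of the 3. The counts of windows are therefore not counts of separate matches. The CREB letters in the run printed start 51 bases before the annotated start. A match is a description of the letters, not of a bound site.

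**Figure D1:**
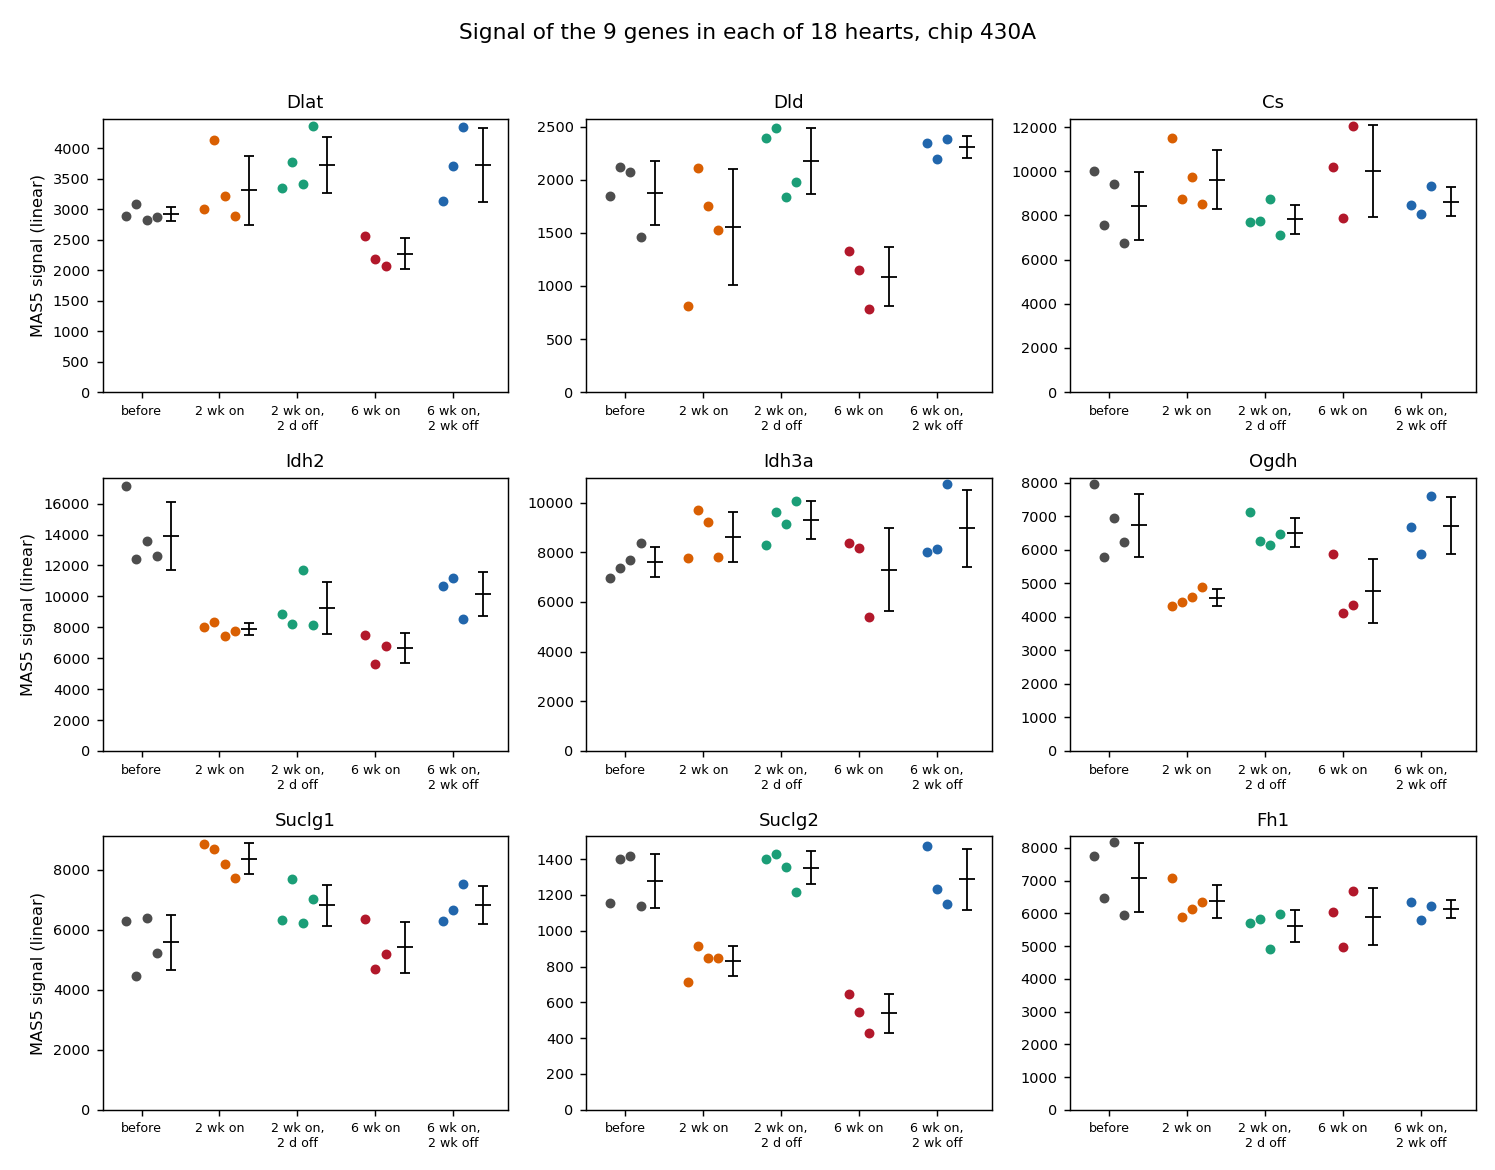
MAS5 signal (linear, vertical axes from 0) of the probe set that stands for each of the 9 genes, 1 point per heart, in the 5 groups on the horizontal axes, with the group mean and SD as a bar to the right of the points. Idh2 is lower in every induced heart than before induction, Suclg2 is low in both induced groups and back at its starting level in both repressed groups, and Suclg1 is high at 2 weeks of induction.

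After 2 weeks of induction the cycle genes moved in both directions. Idh2, Ogdh and Suclg2 fell and Suclg1 rose, and the other 5 genes were not called. That is 1 of 9 genes higher and 3 of 9 lower, where over all probe sets tested 2.66% were called higher and 2.35% lower (2.71% and 1.29% with the arrays scaled to a common median, where Ogdh was not called and 1 gene was higher and 2 lower). Each of the 9 probe sets had a mean signal above 1000. Of 3364 probe sets on chip 430A with a mean signal of at least 1000, the bright probe sets below, 297 were called higher and 220 lower. The median change of the 9 genes was -0.15 on the log2 scale, against -0.05 for all probe sets of chip 430A. Without hearts 3 and 4 before induction, the 2 with Xist signal, 2 genes were called, Idh2 lower and Suclg1 higher, and leaving out any single heart left the count at 4.

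The other genes of the cycle compared here were Idh3b, Idh3g, Dlst, Sucla2, Sdha to Sdhd and Mdh2, 9 genes. At 2 weeks 1 of these 9 was called, Idh3g, the regulatory gamma subunit of the NAD-linked isocitrate dehydrogenase, with a log2 change of -0.36 ± 0.10 (SE, adjusted p = 0.0274). Among 3 further genes of the pyruvate dehydrogenase complex, Pdhx, which encodes its E3-binding protein, rose by 1.00 ± 0.19 on the log2 scale (adjusted p = 0.00697), while Pdha1 and Pdhb, the subunits of its decarboxylase, were not called. Pcx, the pyruvate carboxylase that replenishes oxaloacetate, fell by 0.66 (adjusted p = 0.00536) and was the 1 gene called of 9 measured that feed or drain the cycle. Bckdhb, the decarboxylase beta subunit of the branched-chain complex that uses Dld, fell by 0.54 (adjusted p = 0.00748), and was the 1 gene called of 5 partners of Dld. Aco1, the cytosolic aconitase and iron regulatory protein, was the 1 gene called of 5 cytosolic counterparts, at 0.49 (adjusted p = 0.0464).

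After 2 days of repression Ogdh and Suclg2 rose from their level at 2 weeks of induction. They were 2 of 9 genes called higher, with 0 of 9 lower, where 5.29% of all probe sets were called higher and 4.44% lower (3.7% and 5.5% with arrays scaled to a common median, where 1 of the 9 genes, Suclg2, was called). Of the 3364 bright probe sets 394 were called higher and 655 lower. The median change of the 9 genes was 0.17 on the log2 scale. Of the other cycle genes 2 of 9 were higher, Idh3g by 0.33 and Sdha, the flavoprotein subunit of succinate dehydrogenase, by 0.47, and 0 lower. Pcx rose by 1.00 and Slc25a11, the 2-oxoglutarate and malate carrier, by 0.65, which made 2 of 9 feeding and draining genes. The cytosolic counterparts went both ways: Got1 (0.82) and Me1 (0.94), an aspartate transaminase and malic enzyme, were higher, and Idh1 (-0.65) and Aco1 (-0.45) lower.

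Set against the hearts before induction, the hearts repressed for 2 days differed in 1 of the 9 genes, Idh2, which was lower, where 1.77% of all probe sets were called higher and 1.46% lower (1.65% and 0.88% with arrays scaled to a common median). Of the 3364 bright probe sets 153 were called higher and 237 lower. The Idh2 call was lost without heart 1 before induction, heart 2 or heart 4 of the repressed group, and without both hearts with Xist signal, so that 0 genes remained called. With quantile normalization the Idh2 change was -0.38 (adjusted p = 0.0754), and Suclg1 was called in its place, higher at 0.40 (adjusted p = 0.0315). The comparisons with the hearts before induction and with the induced hearts share those hearts, and their values are not independent of each other.

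At 6 weeks of induction Idh2, Ogdh, Dld and Suclg2 were lower than before induction and none of the 9 was called higher. The background was 5.65% of all probe sets higher and 7.54% lower (8.54% and 3.56% with arrays scaled to a common median). Among the 3364 bright probe sets 568 were called higher and 519 lower. The median change of the 9 genes was -0.36 on the log2 scale, against -0.11 for all probe sets of chip 430A. Over both chips the median of all probe sets was -0.08, and it moved to 0.07 with arrays scaled to a common median, a shift that changes of this comparison are to be read against. With that scaling, without the hearts with Xist signal, or without heart 3 at 6 weeks, 2 of 9 genes were called lower, and each time these were Idh2 and Suclg2. With quantile normalization 6 of 9 were called lower, Dlat and Fh1 among them.

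Markers of other cells moved with the groups in part. Of 7 endothelial markers 4 (Pecam1, Kdr, Tek and Emcn) were lower at 6 weeks than before and higher after 2 weeks of repression, and the summed signal of the 7 on chip 430A ran from 4673 to 6308 at 6 weeks, from 7091 to 8216 before induction and from 7372 to 8228 after that repression. Of 8 cardiomyocyte markers Pln was lower and Ryr2 higher at 6 weeks, and their summed signal ran from 130672 to 192996 there and from 181099 to 236150 before induction. Of 7 fibroblast markers Col1a1, Col1a2 and Col3a1 were higher than before induction in each of the 4 later groups, while 4 of the 7 had changes below 0 at 6 weeks and the list median there was -0.02. Lum and Tcf21, at mean signals of 2687 and 347 at 6 weeks and 3543 and 493 before induction, were not called there and were higher with 2 weeks of repression. Of 7 macrophage markers Lyz2 was higher with both repressions and Ptprc with the later one. The sum of 4 atrial markers ran from 1805 to 66544 within the hearts before induction. Against the induced hearts the median change of these 4 markers was 1.847 on the log2 scale with 2 days of repression and 1.895 with 2 weeks. All 4 had changes above 0 both times, and 0 were called. Of 5 smooth muscle markers Cnn1 was higher at 6 weeks than before (means 335 and 48) and lower with 2 weeks of repression, and Tagln was higher with 2 days of repression. Alas2, 1 of 2 erythroid markers measured, was lower at 6 weeks (means 328 and 1154 before), and Retn, 1 of 2 adipocyte markers measured, was higher with both repressions. The part of these cells in the values of the cycle genes was not tested.

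The other steps of the cycle were lower in part at 6 weeks. Sucla2, the ATP-forming partner of Suclg1, fell by 0.36 (adjusted p = 0.0264), and 3 of 4 succinate dehydrogenase subunits fell, Sdha by 0.34, Sdhc by 0.71 and Sdhd by 0.74 on the log2 scale. That made 4 of 9 other cycle genes lower and 0 higher. Of the feeding and draining genes 4 of 9 were lower, Pcx (-0.45), Oxct1 (-0.50), which activates ketone bodies, Mpc1 (-0.78), a subunit of the mitochondrial pyruvate carrier, and Slc25a11 (-0.83). Bckdhb fell by 1.36 ± 0.13 (SE, adjusted p = 1.58e-06), and Dbt, the acyltransferase of the same branched-chain complex, by 0.83. Of the 3 other genes of the pyruvate dehydrogenase complex and the 5 cytosolic counterparts, 0 were called by limma, with 0 and 2 of them at an unadjusted p under 0.05.

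Between 2 and 6 weeks of induction Dlat, Suclg1 and Suclg2 fell, 3 of 9 genes, with 0 higher, where 1.69% of all probe sets were called higher and 2.36% lower (1.89% and 1.08% with arrays scaled to a common median). Among the 3364 bright probe sets 185 were called higher and 197 lower. The calls of the 3 genes depended on the fit. Without heart 3 at 6 weeks 1 gene, Suclg1, was called, and 0 were called with arrays scaled to a common median or with only both groups in the fit. Of the other cycle genes Sdhc and Sdhd were lower (2 of 9).

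After 2 weeks of repression following the 6 weeks, 5 of 9 genes were higher than at 6 weeks, Idh2, Ogdh, Dlat, Dld and Suclg2, and 0 were lower. The background was 6.48% higher and 4.41% lower (4.2% and 5.52% with arrays scaled to a common median, where 3 of the 9 genes, Dlat, Dld and Suclg2, were called). Among the 3364 bright probe sets 473 were called higher and 538 lower. The median change of the 9 genes was 0.50 on the log2 scale, against 0.06 for all probe sets of chip 430A. Without heart 2 at 6 weeks 3 genes were called, with the Actb ratio as a covariate 3, and with only these groups of 3 hearts each in the fit 2. With quantile normalization Suclg1 was called as well, at 0.50 (adjusted p = 0.00878). Of the other cycle genes 4 of 9 were higher, Dlst (0.48), the succinyltransferase core of the 2-oxoglutarate complex, Sucla2 (0.50), Sdha (0.60) and Sdhd (0.63). Pcx, Glud1, Mpc1 and Slc25a11 were higher by 0.60, 0.48, 0.77 and 1.10, and Bckdhb by 1.05.

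Between the hearts repressed for 2 weeks and those before induction 0 of the 9 genes were called by limma and 3 had an unadjusted p under 0.05, with 1.17% of all probe sets called higher and 1.4% lower (1.2% and 0.701% with arrays scaled to a common median). Among the 3364 bright probe sets 123 were called higher and 134 lower. Of the 9 genes Idh2 came nearest to a call, at -0.45 ± 0.15 (adjusted p = 0.0959), with a 95% interval from -0.76 to -0.14. Of the other cycle genes Sdhc was lower than before induction, at -0.58 (adjusted p = 0.0387). The response to 2 weeks of repression minus that to 2 days was called by limma for 0 of the 9 genes, 3 of which had an unadjusted p under 0.05, where 0.236% of all probe sets were called higher and 0.233% lower (0.106% and 0.157% with arrays scaled to a common median). Among the bright probe sets 27 were called higher and 26 lower. The differences between both responses ran from -0.01 for Ogdh to 0.64 for Suclg1, each with an adjusted p of at least 0.124.

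**Figure D2:**
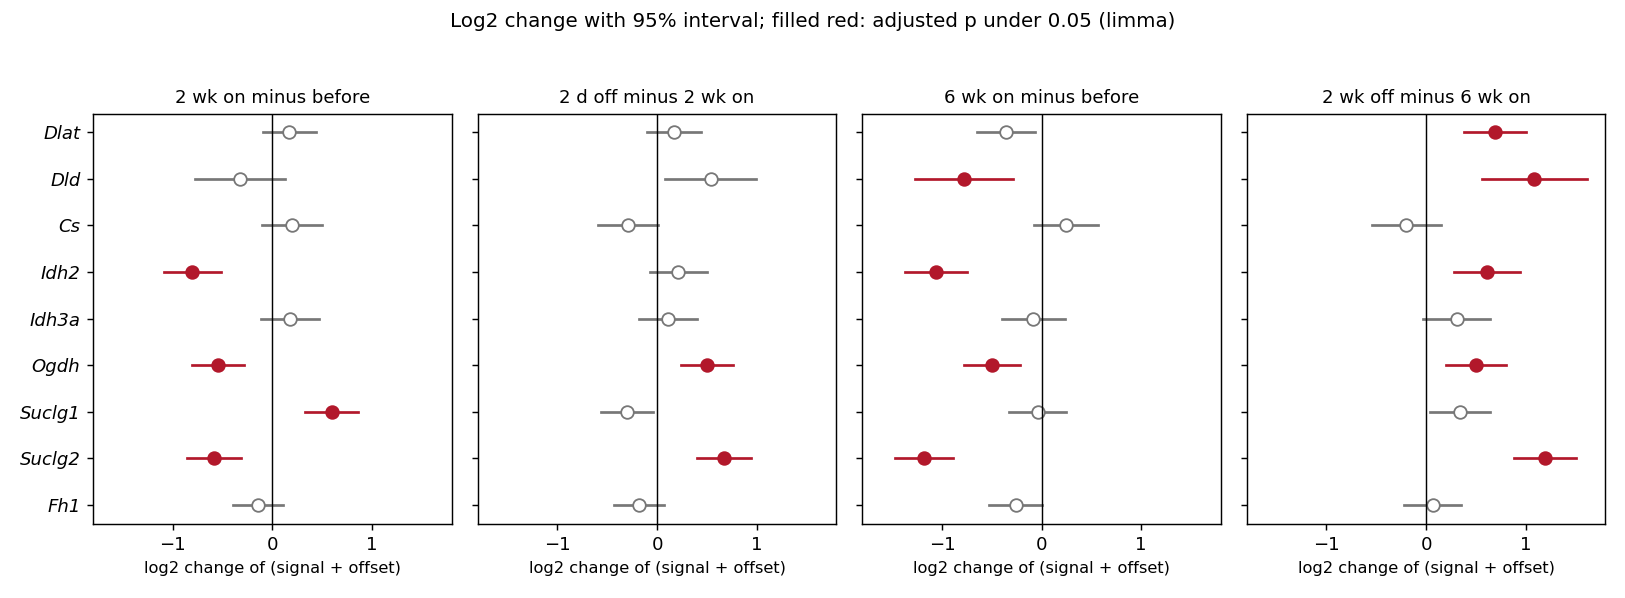
Log2 change of (signal + offset) on the horizontal axes for each of the 9 genes in 4 comparisons, with 95% intervals as lines, where filled red points have an adjusted p under 0.05 in limma. At 2 weeks of induction Suclg1 is the 1 filled point to the right of 0, and after 2 weeks of repression all 5 filled points lie to the right. Each panel on repression shares its induced hearts with the panel on that induction.

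Among the enzymes that bring in carbon, Dlat followed the late groups. Its probe set 1426265_x_at had signals of 2887, 3080, 2817 and 2882 before induction, 3012, 4142, 3221 and 2895 at 2 weeks, 3350, 3770, 3423 and 4369 after 2 days of repression, 2555, 2190 and 2077 at 6 weeks and 3131, 3711 and 4351 after 2 weeks of repression. The 3 hearts at 6 weeks were the lowest of all 18. Dlat fell by 0.53 ± 0.14 (SE, adjusted p = 0.028) from 2 to 6 weeks of induction and rose by 0.69 ± 0.15 (adjusted p = 0.00338) with repression, while the change from before induction to 6 weeks, -0.36, was not called (adjusted p = 0.0726). A second probe set, 1426264_at, gave the same calls at -0.53 and 0.50. The third, 1452005_at, went its own way: it was lower at 6 weeks than before (-0.37, adjusted p = 0.0207) and at 0.03 with repression (adjusted p = 0.91), with group means of 1928 before induction and between 1473 and 1552 in the other 4 groups. Its call at 6 weeks was lost with arrays scaled to a common median, at -0.17 (adjusted p = 0.425), and without the hearts with Xist signal, at -0.32 (adjusted p = 0.112). It was also lost with only both groups in the fit, and without heart 3 before induction or heart 1 at 6 weeks.

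Dld, the shared dihydrolipoyl dehydrogenase, had signals of 1843, 2122, 2069 and 1461 before induction, 816, 2107, 1756 and 1531 at 2 weeks, and 2389, 2489, 1841 and 1981 after 2 days of repression by probe set 1423159_at. At 6 weeks it was at 1329, 1146 and 782, and after 2 weeks of repression at 2348, 2195 and 2384. The 6-week hearts lay below every heart before induction, and every repressed heart lay above them. Dld fell by 0.78 ± 0.23 (adjusted p = 0.0239) at 6 weeks and rose by 1.08 ± 0.25 (adjusted p = 0.0057) with 2 weeks of repression. The 2 lowest signals, 782 and 816, came from heart 3 at 6 weeks and heart 1 at 2 weeks, the hearts with the highest Actb ratios of all 18, 3.71 and 1.92. With the Actb ratio as a covariate the changes were -0.57 (adjusted p = 0.0787) and 0.71 (adjusted p = 0.103), and without heart 3 at 6 weeks they were -0.57 (adjusted p = 0.131) and 0.88 (adjusted p = 0.0362). The part of RNA quality in the Dld values was not tested beyond these fits.

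**Figure D3:**
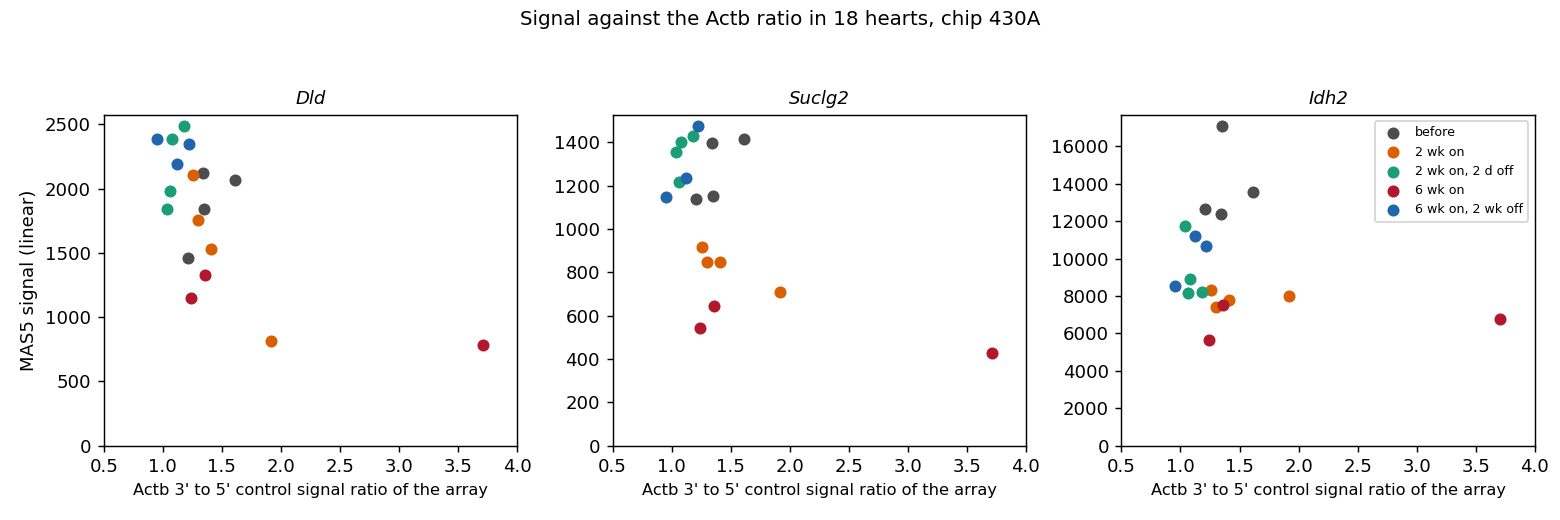
Linear MAS5 signal (vertical axes from 0) of Dld, Suclg2 and Idh2 against the 3′ to 5′ signal ratio of the Actb control probe sets of the same array (horizontal axes), 1 point per heart, coloured by group. Heart 3 at 6 weeks lies alone at a ratio of 3.71, and the other 2 hearts of its group, at 1.24 and 1.36, have Suclg2 signals of 544 and 646, below every heart of the other groups.

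Cs, which encodes the citrate synthase that opens the cycle, had 3 probe sets that differed in their calls. By the brightest, 1450667_a_at, signals were 10023, 7556, 9436 and 6752 before induction, 11491, 8757, 9730 and 8524 at 2 weeks and 10172, 7876 and 12032 at 6 weeks. The repressed hearts had 7692, 7760, 8723 and 7134 after 2 days and 8464, 8074 and 9340 after 2 weeks. The groups overlapped in every comparison and none was called, with changes between -0.29 and 0.24. The dimmer probe set 1422577_at had 2876, 3052, 3468 and 4090 before induction, 2299, 3448, 2925 and 2640 at 2 weeks, 4992, 4877, 5015 and 4272 after 2 days of repression, 2549, 2203 and 1661 at 6 weeks and 4642, 4441 and 4063 after 2 weeks of repression. Both repressed groups lay above both induced groups with no overlap. This probe set was called at 0.76 ± 0.14 with 2 days of repression (adjusted p = 0.00165), at -0.65 ± 0.16 at 6 weeks against before (adjusted p = 0.00579) and at 1.04 ± 0.17 with 2 weeks of repression (adjusted p = 0.000457). It was also called after 2 days of repression against before, at 0.51 ± 0.14 (adjusted p = 0.0443). That call held in 8 of 18 fits without 1 heart and in 6 of 11 other alternatives. The call at 6 weeks against before was lost without the hearts with Xist signal. The third probe set, 1422578_at, was not called in any comparison, with -0.33 at 6 weeks (adjusted p = 0.115) and 0.38 with repression (adjusted p = 0.101). Which transcripts each probe set reads was not analysed here.

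Idh2, the mitochondrial NADP-linked isocitrate dehydrogenase, which makes NADPH in the matrix, fell in both induced groups. By probe set 1450048_a_at it was at 17112, 12390, 13555 and 12630 before induction and at 8020, 8330, 7433 and 7777 after 2 weeks of induction. After 2 days of repression it was at 8882, 8225, 11732 and 8134, at 6 weeks of induction at 7519, 5619 and 6788, and after 2 weeks of repression at 10681, 11218 and 8545. No heart of the later groups reached the lowest heart before induction. Group means were 56.7% of the mean before induction at 2 weeks, 66.4% after 2 days of repression, 47.7% at 6 weeks and 72.9% after 2 weeks of repression. Idh2 fell by 0.80 ± 0.14 (adjusted p = 0.00121) at 2 weeks and by 1.06 ± 0.15 (adjusted p = 8.93e-05) at 6 weeks. Both calls held in all 30 alternatives tried. The alternative with the mean of the probe sets of a gene left both changes as they were. It could not test them against the Idh2 probe set on the other chip, which did not enter it.

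Repression moved Idh2 part of the way back. The change with 2 days of repression was 0.21 ± 0.14 (adjusted p = 0.304), and the hearts stayed 0.59 below those before induction (adjusted p = 0.0163). With quantile normalization the change with 2 days of repression was called, at 0.40 (adjusted p = 0.0307). With 2 weeks of repression Idh2 rose by 0.61 ± 0.16 (adjusted p = 0.0117), and all 3 repressed hearts lay above all 3 hearts at 6 weeks. This call was lost with arrays scaled to a common median and with only both groups in the fit. It was also lost without heart 2 at 6 weeks or heart 2 after 2 weeks of repression (adjusted p up to 0.105 over the alternatives). The second Idh2 probe set, 1453601_at on chip 430B, was dim, with group means from 136 before induction to 94.1 after 2 weeks of repression, and was called in no comparison. Its change at 6 weeks was -0.45 ± 0.18 (adjusted p = 0.163).

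Idh3a encodes the catalytic alpha subunit of the NAD-linked isocitrate dehydrogenase, the enzyme usually assigned to the forward cycle. Its brightest probe set, 1432016_a_at, was at 6972, 7356, 7705 and 8365 before induction, 7752, 9701, 9217 and 7796 at 2 weeks, and 8378, 8155 and 5373 at 6 weeks. The repressed hearts had 8298, 9611, 9153 and 10080 after 2 days and 7992, 8146 and 10738 after 2 weeks. The hearts of any 2 groups overlapped and no comparison was called, with changes from -0.26 to 0.31. Of 3 further probe sets, 1422500_at was called at 2 weeks only, at 0.36 ± 0.10 (adjusted p = 0.0394; 0.226 without the hearts with Xist signal and 0.0634 with quantile normalization), and 1422501_s_at and 1447701_x_at were not called. The call of 1422500_at was also lost without heart 1, 3 or 4 before induction, or heart 2 or 3 at 2 weeks, with only both groups in the fit and with no trend in eBayes. At 2 weeks of induction the 95% interval of the Idh3a change was -0.11 to 0.47, and that of Idh2 was -1.09 to -0.52.

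Ogdh, the decarboxylase of the 2-oxoglutarate dehydrogenase complex, was at 7944, 5780, 6959 and 6232 before induction and at 4322, 4447, 4589 and 4900 at 2 weeks by probe set 1451274_at. It was at 7126, 6259, 6146 and 6480 after 2 days of repression, at 5861, 4104 and 4346 at 6 weeks and at 6670, 5883 and 7591 after 2 weeks of repression. The 2-week hearts lay below every heart before induction and every heart repressed for 2 days, while at 6 weeks heart 1, at 5861, lay within the range before induction. Ogdh fell by 0.55 ± 0.12 (adjusted p = 0.00938) at 2 weeks and rose by 0.51 ± 0.12 (adjusted p = 0.0088) with 2 days of repression. The fall at 6 weeks was 0.50 ± 0.13 (adjusted p = 0.0128) and the rise with 2 weeks of repression 0.50 ± 0.14 (adjusted p = 0.0202). Group means after both repressions were 96.6% and 99.8% of the mean before induction.

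The Ogdh calls were sensitive to the scaling of the arrays. With a common median the changes were -0.45 at 2 weeks (adjusted p = 0.101), 0.38 with 2 days of repression (adjusted p = 0.11), -0.29 at 6 weeks (adjusted p = 0.254) and 0.35 with 2 weeks of repression (adjusted p = 0.206). The 6-week calls were also lost without heart 2 at 6 weeks, at -0.40 (adjusted p = 0.0654) and 0.40 (adjusted p = 0.0799), and without heart 3, at -0.44 (adjusted p = 0.0517) and 0.44 (adjusted p = 0.0762). The chip 430B probe set 1445632_at was dim, with group means from 153 to 235, was called in no comparison and stood at 0.48 ± 0.23 at 6 weeks (adjusted p = 0.254), the opposite sign to 1451274_at.

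Suclg1 and Suclg2 encode the subunits of the GTP-forming succinyl-CoA ligase, the alpha subunit that is also used by the ATP-forming enzyme and the beta subunit that sets the use of GDP. Suclg1, by its only probe set 1415891_at, was at 6282, 4460, 6394 and 5212 before induction, 8868, 8705, 8211 and 7718 at 2 weeks and 6315, 7689, 6232 and 7015 after 2 days of repression. It was at 6366, 4709 and 5190 at 6 weeks and at 6297, 6645 and 7541 after 2 weeks of repression. Each of the 4 hearts at 2 weeks was above every other heart. Suclg1 rose by 0.59 ± 0.13 (adjusted p = 0.00603) at 2 weeks, a call that held in all 30 alternatives tried, and fell by 0.63 ± 0.14 (adjusted p = 0.00903) from 2 to 6 weeks. Its change with 2 days of repression, -0.30 ± 0.13, was not called (adjusted p = 0.106), although the hearts of both groups did not overlap.

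Suclg2, by probe set 1427441_a_at, was at 1153, 1399, 1415 and 1137 before induction, at 711, 915, 848 and 848 at 2 weeks, and at 1401, 1430, 1356 and 1219 after 2 days of repression. It was at 646, 544 and 427 at 6 weeks and at 1475, 1236 and 1150 after 2 weeks of repression. The induced hearts were the 7 lowest of the 18, with the 6-week hearts below the 2-week hearts, and the hearts of both repressed groups overlapped those before induction. Group means were 65.1% of the mean before induction at 2 weeks, 105.9% after 2 days of repression, 42.3% at 6 weeks and 100.9% after 2 weeks of repression. Suclg2 fell by 0.59 ± 0.13 (adjusted p = 0.00772) at 2 weeks and by 1.18 ± 0.14 (adjusted p = 1.81e-05) at 6 weeks, and rose by 0.67 ± 0.13 (adjusted p = 0.00196) and 1.19 ± 0.15 (adjusted p = 5.21e-05) with the repression that followed each. All but the first of these 4 calls held in all 30 alternatives tried. The first was at -0.59 (adjusted p = 0.0697) without the hearts with Xist signal. The alternative with the mean of the probe sets of a gene left the 4 changes as they were. The Suclg2 probe set on the other chip did not enter it, so it could not test these calls against that probe set.

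The chip 430B probe set of Suclg2, 1435841_s_at, was brighter and was called in no comparison. Its mean signal was 29.3 times the trimmed mean of its chip, against 2.15 times for 1427441_a_at. Its signals were 3934, 3412, 3895 and 3554 before induction, 2855, 3581, 3463 and 3188 at 2 weeks and 3036, 2842 and 3295 at 6 weeks, so that the 6-week hearts again lay below those before induction. The repressed hearts were at 4115, 3615, 3795 and 3667 after 2 days and at 5060, 3108 and 4101 after 2 weeks. Its changes, -0.18, 0.22, -0.27 and 0.39 in the same 4 comparisons, had the sign of those of 1427441_a_at at a smaller size.

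Fh1, the fumarase of the mitochondrion and cytosol, had signals of 7743, 6475, 8192 and 5944 before induction, 7069, 5882, 6148 and 6359 at 2 weeks and 6050, 4977 and 6681 at 6 weeks by its only probe set, 1424828_a_at. After repression it was at 5710, 5845, 4906 and 5992 for 2 days and at 6352, 5812 and 6228 for 2 weeks. The groups overlapped in every comparison. Fh1 was not called in any, with changes between groups from -0.33 to 0.06 and adjusted p of at least 0.115. With quantile normalization it was called lower at 6 weeks than before, at -0.32 (adjusted p = 0.0393).

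**Figure D4:**
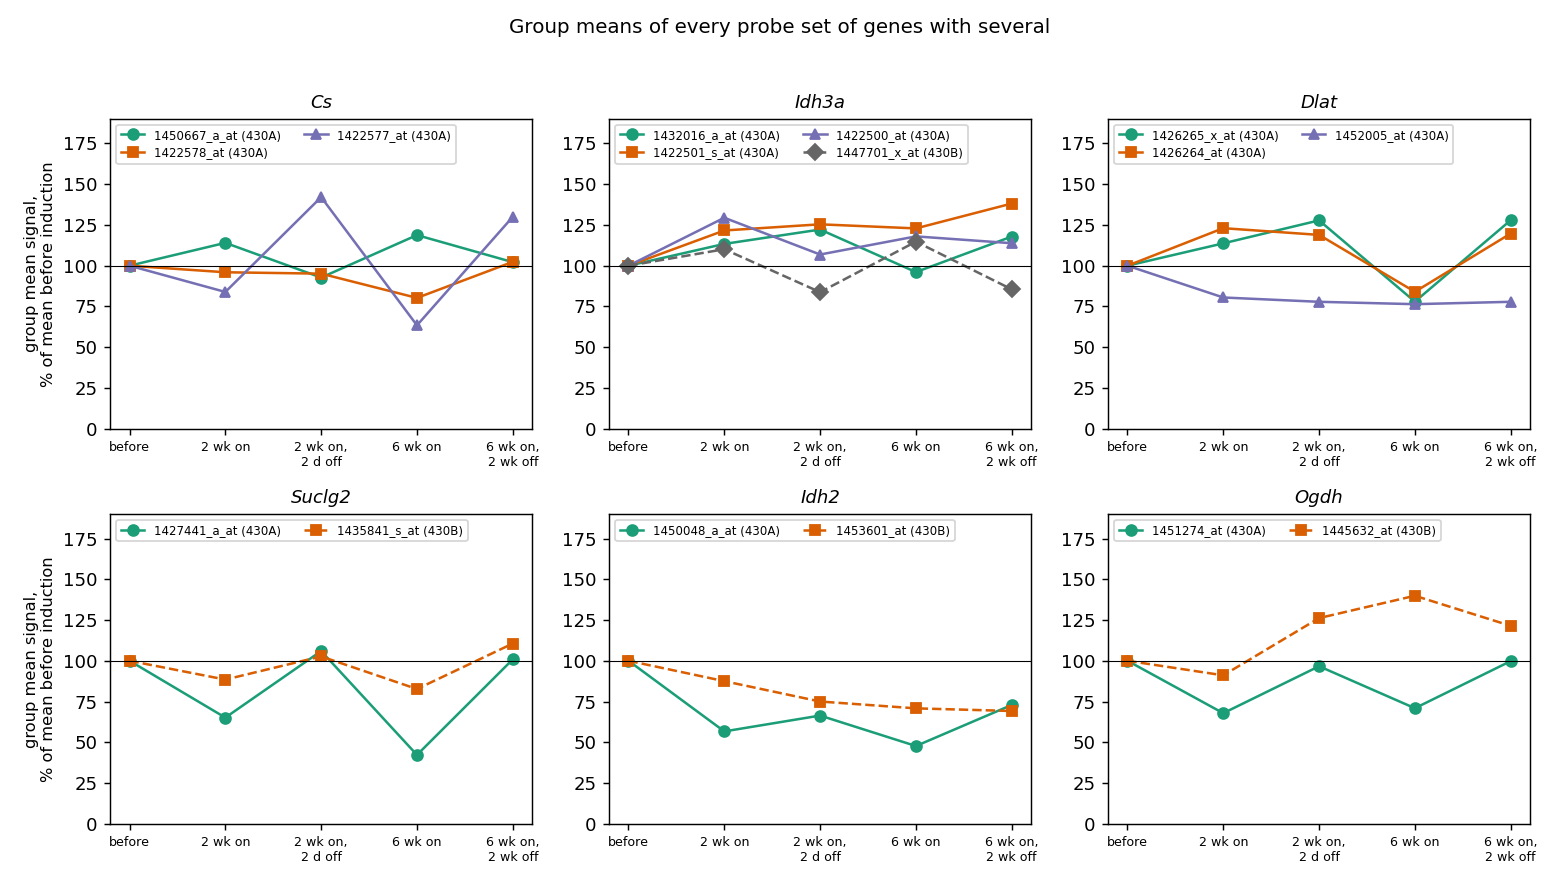
Group mean signal as a percentage of the mean before induction (vertical axes from 0) for every probe set of 6 genes with several, by group on the horizontal axes, with solid lines for chip 430A and dashed lines for chip 430B. The 3 Cs probe sets separate at 6 weeks, from 63.4% to 118.8%, and both Suclg2 probe sets are lowest at 6 weeks, at 42.3% and 82.7%.

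By their median the 9 genes were lowest at 6 weeks of induction. Of the 19 probe sets 11 had their lowest signal in a heart of that group, 7 of them in heart 3 and 3 in heart 2. The share over all probe sets was not determined, so the count cannot be set apart from the arrays. Median signals on chip 430A were 183 to 190 at 6 weeks and 183 to 231.7 over all arrays, and heart 3 had the Actb ratio of 3.71. The median over the 9 genes of the difference from the mean before induction was -0.19, -0.49 and -0.49 on the log2 scale in the 3 hearts at 6 weeks and ran from -0.14 to 0.18 in the 15 others. The order of group means on the log2 scale differed between members: Idh2, Ogdh and Fh1 had their highest mean before induction, Suclg1 at 2 weeks of induction, Cs at 6 weeks, Dlat, Idh3a and Suclg2 after 2 days of repression, and Dld after 2 weeks of repression. The hearts of the highest group were set apart from all hearts of the next group for Idh2 and Suclg1, and overlapped them for the other 7 genes. How often this happens over all probe sets was not determined, so this count is a description only.

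Likeness between genes was measured as the root mean square difference of the 5 centred group means on the log2 scale among 9275 other genes on chip 430A. The nearest member to Suclg2 was Dld at 0.14, the gene at rank 119 in likeness to Suclg2. For the other members the nearest member ranked further off, from 339 for Dld to 7092 for Fh1. For Idh2 the closest genes were Ppargc1a (0.046) and Tpm1 (0.054), and for Ogdh they were Aamp (0.014) and Fth1 (0.017). Dlat was closest to Cog6 (0.024) and Tmem121b (0.027), Dld to Capn7 (0.031) and Abcf1 (0.032), Suclg1 to Acaa2 (0.043) and Dstn (0.049), and Suclg2 to Rab5if (0.032) and Cttn (0.06). These are descriptions over 5 groups of the same 18 hearts.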

How the data were processed

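RNA of 18 hearts was measured on 36 arrays, 1 chip 430A and 1 chip 430B per heart. The deposited values are intensity values on a linear scale, which the submitters' processing notes name as MAS5 signals (no version given there). The 2% trimmed mean was 500.172 to 500.223 on all arrays of chip 430A and 122.505 to 122.513 on chip 430B, so the signals had been scaled and were used as deposited. Median signals were 183 to 231.7 and 60.88 to 78.91. Arrays have no depth in counts, and their number limits the precision.

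After the 64 control probe sets of each chip were left out, probe sets with a mean signal of at least 20% of the trimmed mean (100 and 24.5) were kept. An offset of 10% of the trimmed mean was added before log2. The fit of a chip used limma 3.58.1 (lmFit, then eBayes with a trend; R 4.3.3), with 1 mean for each of 5 groups over all 18 hearts. There were 8 contrasts, with Benjamini-Hochberg adjustment of p-values over a chip and contrast. The script was tested on simulated data. Replicate numbers did not pair the hearts: of 33 pairs with the same number 5 had deviations correlated above 0.1 (r from -0.16 to 0.33). The labels describe individual mice. No scan date or batch was used here. Alternatives changed the offset, filter, scaling, variance model, hearts, block, RNA quality covariate and the value used for a gene. The last of these took the mean of the probe sets of a gene on the same chip, and did not combine probe sets of different chips.

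The 9 genes, the other lists and the tests were chosen with earlier results of these data known. All 9 genes are named with all their probe sets, other lists by up to 4 called genes per contrast by adjusted p, and for members whose group means span at least 0.5 log2 the 2 genes with the closest pattern. Sequences came from RefSeq (GRCm38.p6).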

Additional observations from a re-analysis of the deposited data

Results flagged for a closer look

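In 57 tests of the highest or lowest heart within a group of 4, 2 hearts lay far from the other 3, where chance gives about 1 in 20. By Idh3a probe set 1422501_s_at, heart 1 after 2 days of repression had a signal of 2728 against 3401 to 3489 in the other hearts, a gap of 0.884 of the range of the group and past Dixon's critical value at 95%. By Cs probe set 1422578_at, heart 4 at 2 weeks of induction had a signal of 7840 against 8592 to 8718, a gap of 0.856 of the range. Neither probe set stands for its gene, and neither was called in a comparison.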

How the results depend on the processing

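Over 30 alternatives, 18 of which left out 1 heart, the 31 called changes of member probe sets and Akt1 gave 922 values. Of these 838 kept direction and call, 84 kept the direction and lost the call, and 0 changed direction, and 12 changes kept their call throughout. All called changes of the Akt1 probe set are among these 12, so the members alone were less stable than the pooled values. The mean of the probe sets of a gene, 1 of the 30 alternatives, left the changes of Idh2, Ogdh and Suclg2 as they were. Their other probe sets are on the other chip and did not enter that mean. The counts of the 9 genes called moved as follows. With arrays scaled to a common median, 1 gene was called with 2 days of repression, 2 at 6 weeks against before, 0 between 2 and 6 weeks and 3 with 2 weeks of repression, against 2, 4, 3 and 5 in the fit reported. Without both hearts with Xist signal, 2 were called at 2 weeks, 0 after 2 days of repression against before and 2 at 6 weeks, against 4, 1 and 4. With only the groups of a contrast in the fit, 0 were called between 2 and 6 weeks and 2 with 2 weeks of repression, and with the Actb ratio as a covariate the latter count was 3. Leaving out 1 heart gave 4 to 4 at 2 weeks, 2 to 3 with 2 days of repression, 0 to 1 for those hearts against before, 2 to 5 at 6 weeks, 1 to 4 between 2 and 6 weeks and 3 to 6 with 2 weeks of repression. The replicate block left each of these counts as it was, with 4 genes at 2 weeks and 5 with 2 weeks of repression. It ended 1 call of a probe set, Cs 1422577_at after 2 days of repression against before, at 0.51 (adjusted p = 0.0667), a call that other alternatives ended too. Where a fit lost a call, the cause was not tested. With quantile normalization the 1 gene called after 2 days of repression against before was Suclg1, higher, in place of Idh2, lower. That normalization also gained calls of Idh2 with 2 days of repression and of Suclg1 with 2 weeks, both higher. The 922 values follow only calls of the fit reported and do not hold calls gained in an alternative. With 3 or 4 hearts a group, changes as small as that of Idh3g with 2 days of repression (0.33) were called, and that of Fh1 after 2 days of repression against before (-0.33, 95% interval -0.57 to -0.08) was not.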
